A study of Rattus norvegicus with 40 samples.

Results

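Intermittent theta burst stimulation (iTBS), a repetitive transcranial magnetic stimulation (rTMS) protocol that delivers short bursts of magnetic pulses in a theta rhythm, was compared with sham stimulation in hippocampal slices of aged impaired (AI) rats. The members are the 4 primary iTBS arrays and the 4 primary sham arrays of AI rats, 8 of the 40 arrays of the series, taken by their titles with labelled repeats left out and paired by the animal number. AI rats are male Long-Evans rats that learned the place of a hidden platform in the Morris water maze less well than young rats did, and aged unimpaired (AU) rats are those of the same age range that learned it as well as young ones. The labels give the AI rats as 25 to 26 months old while the protocol text gives 24 to 25 months. The label of each array gives RNA collection 1 h after stimulation, and the protocol text gives a rest of 2 h. Slices of 1 rat were divided over sham, 1 Hz and iTBS dishes, were kept in artificial cerebrospinal fluid at 32 degrees C for 1 h, and were then stimulated at 15% of the output of the machine. The coil was 1 cm from the slices for iTBS and 20 cm away for sham. Each array thus pools several slices of 1 animal, and 4 rats are 4 biological replicates. The slices hold neurons, glia, vessels and resident immune cells together, so fewer cells of a type and less RNA per cell cannot be told apart.

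Hippocampal slices are injured tissue. Cutting and incubation are known to switch on immediate early genes, which encode transcription factors and signalling feedback proteins made within an hour of a stimulus, and to switch on heat shock, wound and cytokine genes. Neuronal firing switches on an overlapping set of immediate early genes, among them Fos, Arc and Egr1. Interferon-stimulated genes respond to interferon or to foreign nucleic acid through a promoter element known as the interferon-stimulated response element, and AP-1, a dimer of Fos and Jun family proteins, binds a short site in many wound and cytokine genes. Complement and major histocompatibility complex (MHC) class II genes are expressed in the brain mainly by microglia and macrophages and are known to be higher with age.

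All levels are log2 signals expressed as z-scores of each array and multiplied by the mean SD of the 36 primary arrays, 4.158. A level of 0 is the mean of the array. Differences are given in these log2 units but are not exact log2 fold changes, because each array was divided by its own SD. That SD was 4.3 for sham and 3.7 for iTBS in rat 1, and 3.88 and 4.44 in rat 2. The chaperone gene Hspa8 in rat 1 differed by 0.89 with z-scores and by 0.1 with arrays brought to a common 75th percentile. The share of probes that the scanner software marked well above background lay between 67.1% and 89.9% on these arrays, with the sham array of rat 4 lowest and the iTBS array of rat 1 highest. Markers of dentate granule, CA1, and CA2 and CA3 neurons had median levels above 0 on every sham and iTBS array, as did astrocyte and oligodendrocyte markers, whereas those of T and cytotoxic lymphocytes were below 0 on every one. The sham and iTBS arrays of rats 3 and 4 shared a slide within each rat, and those of rats 1 and 2 lay on different slides.

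The sham array of rat 2 stood apart from the other arrays of its own animal. Over 300 probes chosen because they differed between the other 10 rats of the series and not within them, arrays of 1 rat other than AI rat 2 and the young rat noted below correlated at r = 0.77 to 0.99. The choice of probes on those same 10 rats favours a high range for them, so the range is no independent yardstick for rat 2. The sham array of AI rat 2 correlated at 0.36 with the 1 Hz array and at 0.3 with the iTBS array of that rat, and at 0.59 with an array of another rat. The iTBS and 1 Hz arrays of rat 2 correlated at 0.8 with each other. The counts over all genes and the differences of the leading genes are therefore also given without rat 2.

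**Figure D1:**
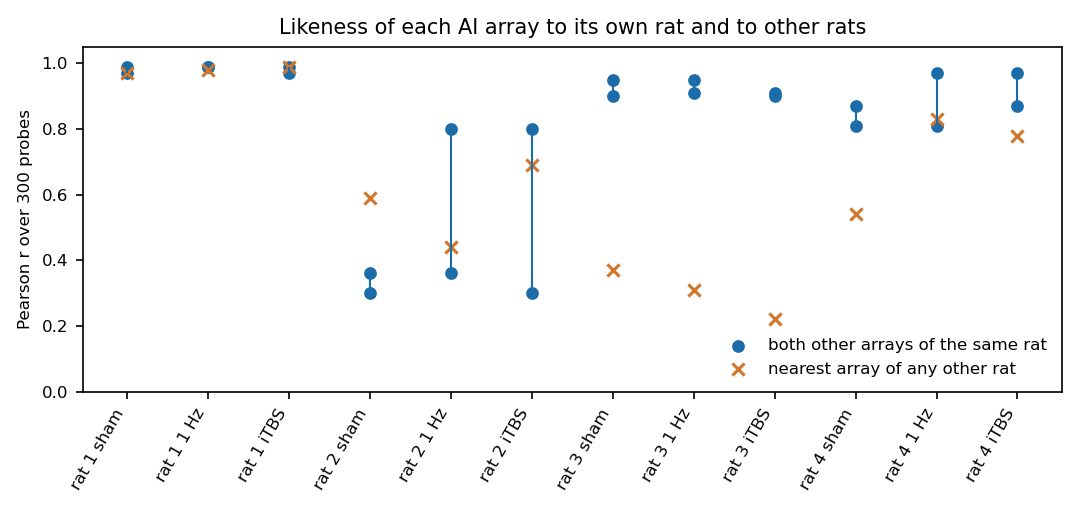
Pearson correlation (y axis, r over 300 probes) of each of the 12 primary AI arrays (x axis) with both other arrays of its own rat (circles joined by a line) and with the most similar array of any other rat (crosses). The sham array of rat 2 lies at 0.3 and 0.36 with its own rat and at 0.59 with another rat.

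No probe separated iTBS from sham slices after adjustment. With limma and the rat as a block, 0 of 32546 tested probes (0%) had an adjusted p under 0.05, and the smallest adjusted p was 1. At an unadjusted p under 0.05, 147 probes (0.452%) were higher after iTBS and 376 (1.16%) were lower. The split of these calls by direction depended on how the arrays were scaled: with arrays brought to a common 75th percentile, 222 were higher and 242 lower, and after background correction by normexp with quantile normalization, 205 were higher and 303 lower. Without the rat as a block the counts were 51 higher and 178 lower. Without rat 1 the split turned to 455 higher and 321 lower. The mean differences and their SEs in the following paragraphs come from this fit over the 12 AI arrays, and the adjusted p was 1 for every gene named.

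The 4 rats did not move together. The median over tested probes of iTBS minus sham was -0.2 in rat 1, 0.19 in rat 2, -0.08 in rat 3 and 0.05 in rat 4. In rat 1, 65.7% of probes were lower after iTBS, against 35.4% in rat 2, 61.2% in rat 3 and 45.7% in rat 4. Differences spread with an SD over probes of 0.57, 0.6, 0.37 and 0.6 in rats 1 to 4. Rat 3 thus had the narrowest spread. As a description over probes, which share arrays and are not independent, the differences of rats 1 and 2 correlated at -0.42, those of rats 2 and 3 at -0.23, and those of rats 1 and 3 at 0.16.

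With 1 probe per gene, 358 of 13179 genes (2.72%) were lower after iTBS in all 4 rats and 175 (1.33%) were higher in all 4. In the 3 rats other than rat 2, 1945 genes (14.8%) were lower in each and 831 (6.31%) were higher in each. Scaled to the 75th percentile, 303 genes were lower and 334 higher in all 4 rats, and 614 were lower and 1690 higher in rats 1, 3 and 4, so the excess of lower genes was seen with z-scores and not with that scaling. After normexp and quantile normalization 342 were lower and 378 higher in all 4. The median difference over the tested genes was -0.01 with z-scores and 0.01 with either other scaling. In rat 1 the median was -0.21 with z-scores and 0.16 with 75th percentile scaling, and in rat 2 it was 0.15 and -0.14. At an unadjusted p under 0.05, 165 genes (1.25%) were lower and 41 (0.311%) were higher. In 52 genes (0.395%) every iTBS array was below every sham array, and in 11 genes (0.0835%) every iTBS array was above every sham array.

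Fosl1 had the smallest p of the genes that were lower in all 4 rats. It encodes Fra-1, a Fos family partner in AP-1 dimers that appears after growth factor and injury stimuli. Its level was 1.75, 0.32, 0.84 and 0.89 in the sham slices of rats 1 to 4 and -0.18, -0.67, -0.31 and 0.01 after iTBS. Every iTBS slice sample was below every sham sample, and the difference in rat 1 was larger than in the other rats. The mean difference was -1.23 ± 0.21 (SE, n = 4 rats) and -1.32 ± 0.26 without rat 2.

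Other immediate early genes lower in all 4 rats were Maff, Dusp5, Klf2, Klf4, Gadd45b and Plk2. Maff, a small Maf transcription factor, was at 3.41, 1.68, 1.96 and 2.37 in sham slices and at 2.3, 1.27, 1.55 and 1.72 after iTBS (mean difference -0.64 ± 0.15, SE, n = 4, and -0.72 without rat 2). The sham and iTBS values of Maff overlapped, and rat 1 had the highest level in both groups. Dusp5, a phosphatase that switches off ERK, differed by -1.08, -0.08, -0.39 and -0.43 (mean -0.49 ± 0.17, and -0.63 without rat 2). Klf4, a zinc finger transcription factor of vessel wall and stress responses, differed by -0.41, -0.37, -0.04 and -1.56, so most of its mean of -0.6 came from rat 4. For Klf2, Gadd45b and Plk2 the mean differences were -0.39, -0.35 and -0.23. Klf2 was lower in 2 of 4 rats and Plk2 in 3 of 4 with either other scaling.

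Fos, Arc and Egr1, widely used as readouts of neuronal firing, were not in the same direction in all 4 rats. Fos, the AP-1 subunit, was at 3.92, 3.95, 3.49 and 3.78 in sham slices and at 3.65, 3.49, 3.61 and 3.43 after iTBS (mean difference -0.24 ± 0.15). Arc, a synaptic immediate early gene, differed by 0.03, -0.24, 0.22 and -0.76 (mean -0.18 ± 0.18), and Egr1, a zinc finger transcription factor, by 0.15, -0.2, 0.21 and -0.67 (mean -0.13 ± 0.18). The sign of Fos, Arc and Egr1 differed between rats, and their groups overlapped. Over the 38 immediate early genes the median difference was -0.14, 7 genes were lower in all 4 rats and 0 were higher in all 4, beside 2.72% and 1.33% of all genes. In single rats the median was -0.22, -0.04, -0.08 and -0.33, and it was below 0 in each of the 4. Over all tested genes it was -0.21, 0.15, -0.09 and 0.1, so rats 1 and 3 lay close to the median of all genes. With 75th percentile scaling and with normexp, 6 of the 38 were lower in all 4 rats and 0 higher.

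Among 29 cytokine and chemokine genes the median difference was -0.03, with medians of -0.55, -0.12, -0.23 and 0.51 in rats 1 to 4. Il6 and Ccl2 were lower in all 4 rats and Osm and Cxcl14 higher in all 4, beside 2.72% and 1.33% of all genes. With 75th percentile scaling 4 genes of that list were lower in all 4 rats and 0 higher. In the next paragraph Il6, Ccl2 and Ccl7 were named because their mean differences were among the largest of this cytokine and chemokine list. The other genes in the rest of this paragraph and the next were named for their p or by the criteria below. None of them stands for a group. Emp1, an epithelial membrane protein gene of wounded and growing cells, was at 3.09, 2.21, 2.24 and 2.36 in sham slices and at 1.52, 1.59, 1.55 and 1.49 after iTBS. The 4 iTBS values lay within a narrow band below every sham value, and the mean difference was -0.94 ± 0.18 (SE, n = 4), or -1.04 without rat 2. Csf3, which encodes the granulocyte growth factor G-CSF, had the largest mean difference of the genes past the criteria given below, -1.34 ± 0.31, and -1.43 without rat 2. Its level was 1.85, 0.6, 1.41 and 0.15 in sham slices and -0.4, -0.45, -0.21 and -0.28 after iTBS, with no overlap.

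Il6, the gene of the cytokine interleukin-6, was at -0.49, -2.34, -1.1 and -2.28 in sham slices and at -2.37, -2.89, -2.27 and -3 after iTBS (mean difference -1.08 ± 0.28, and -1.26 without rat 2). With normexp its mean difference was -0.49, and rat 2 differed by -0.16. Sham values of Il6 were high in rats 1 and 3 and overlapped the iTBS values in rats 2 and 4. Ccl2, a chemokine that draws monocytes, was lower by 1.59 in rat 1 and by 0.2 in rat 4, with a mean difference of -0.76 ± 0.23, or -0.8 without rat 2. Ccl7, its neighbour in the same chemokine family, differed by -2.89, -0.45, -0.91 and 0.01, so rat 4 showed no lower level. Lcn2, an iron-sequestering acute phase protein gene, was at -1.04, -1.09, -1.31 and -0.98 in sham slices and at -1.86, -2.25, -2.07 and -1.41 after iTBS, with no overlap and a mean difference of -0.79 ± 0.16, or -0.67 without rat 2. Timp1, an inhibitor of matrix metalloproteinases, differed by -1.21, -0.3, -0.49 and -0.52, also with no overlap.

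The rest of the 10 lower genes with the smallest p were Uaca, Tcim, Gnat2, Sphk1, Rhoj and Gpr4, with Ifit3 described below. Gpr4, a proton-sensing receptor of endothelial cells, was at 3.12, 3.1, 3.43 and 3.26 in sham slices and at 2.02, 2.55, 2.62 and 2.67 after iTBS, with no overlap (mean difference -0.76 ± 0.16, and -0.84 without rat 2). Rhoj, a small GTPase of endothelial cells, had a mean difference of -0.83 ± 0.17. Sphk1, the kinase that makes sphingosine 1-phosphate, had one of -0.75 ± 0.15. For Tcim, Uaca and Gnat2 the mean differences were -1.07, -0.79 and -0.93, and Gnat2 was not well above background in 1 of the 4 iTBS samples. Lcn2, Sphk1 and Tcim were lower in 3 of 4 rats with 75th percentile scaling, and the other 7 of these 10 genes were lower in all 4 with each of the 3 scalings. For Gnat2 the rat 1 difference with 75th percentile scaling was -0.0. With normexp all 10 mean differences were smaller in size, from -0.94 for Fosl1 to -0.34 for Gnat2. Those of Tcim, Lcn2, Sphk1 and Rhoj were -0.43, -0.42, -0.38 and -0.37.

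**Figure D2:**
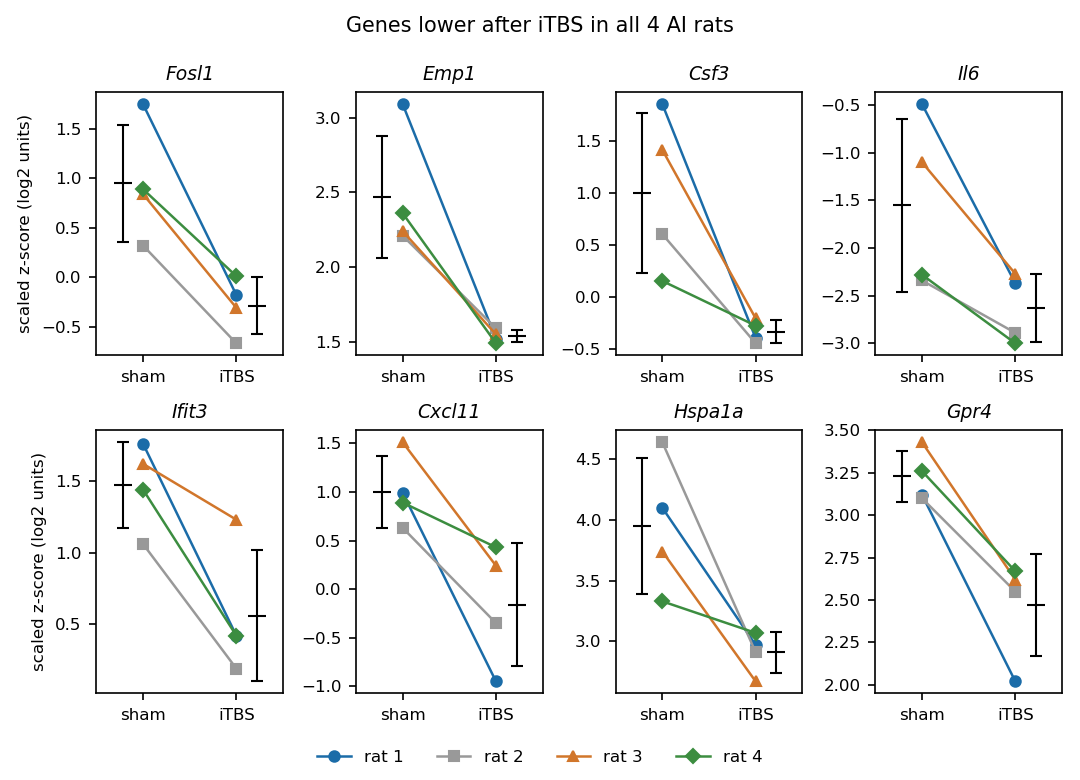
Scaled z-score (y axis, log2 units) of 8 genes in sham and iTBS slices (x axis) of AI rats 1 to 4, with 1 line for each rat and the mean ± SD of 4 rats beside each group. All lines run downward, and Fosl1, Emp1, Csf3, Cxcl11, Hspa1a and Gpr4 do not overlap between the groups, whereas Il6 and Ifit3 do.

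Hspa1a, the inducible form of Hsp70, had the largest mean difference of the chaperone genes. Its level was 4.1, 4.64, 3.74 and 3.33 in sham slices and 2.97, 2.91, 2.67 and 3.07 after iTBS, and the groups did not overlap. The mean difference was -1.05 ± 0.23, and it was -0.82 ± 0.2 without rat 2, whose sham array had the highest level. Hspa8, the constitutive Hsc70 gene, differed by 0.89, -0.6, 0.28 and 0.07. Over 30 chaperone genes the median difference was 0.03, with 2 lower in all 4 rats, Hspa1a and Fkbp4, and 1 higher in all 4, Hsf2, beside 2.72% and 1.33% of all genes. The co-chaperone Fkbp4 rested on rat 2, with a mean of -0.34 and of -0.08 without that rat. Genes of oxidative and hypoxic stress had a median of -0.15 over 26 genes, and 3 of them were lower in all 4 rats, beside 2.72% of all genes. These were Gadd45a, Gadd45g and Cdkn1a, of which Gadd45a, a growth arrest gene, differed by -1.24, -0.1, -0.23 and -0.47 and Cdkn1a, the cell cycle inhibitor p21, by -0.53, -0.92, -0.17 and -0.32.

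Of the interferon-stimulated genes, 5, namely Ifit3, Cxcl11, Ifitm3, Cxcl10 and Oasl, were lower in all 4 rats, and 0 of 31 were higher in all 4, beside 2.72% and 1.33% of all genes. To show what lies before the start of the genes concerned, the 250 bases upstream of 4 of them are printed from RefSeq on build GRCr8. Capitals mark each match on either strand to the letters GAAA, any 2 bases and GAAA, the core of the interferon-stimulated response element, or to TGANTCA, the AP-1 site.

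Ifit3, chr1:241527076-241527325, plus strand: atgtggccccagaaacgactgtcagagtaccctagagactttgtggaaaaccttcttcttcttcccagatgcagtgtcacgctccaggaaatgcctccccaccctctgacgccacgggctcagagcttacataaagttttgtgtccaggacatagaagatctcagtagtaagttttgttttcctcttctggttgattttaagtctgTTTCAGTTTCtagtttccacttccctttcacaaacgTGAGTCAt
Ifitm3, chr1:205541759-205542008, minus strand: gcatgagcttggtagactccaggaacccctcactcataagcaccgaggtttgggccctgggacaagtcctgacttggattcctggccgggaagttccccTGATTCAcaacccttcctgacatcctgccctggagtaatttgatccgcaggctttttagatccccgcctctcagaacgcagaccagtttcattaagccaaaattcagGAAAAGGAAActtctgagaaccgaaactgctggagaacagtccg
Cxcl10, chr14:15988816-15989065, plus strand: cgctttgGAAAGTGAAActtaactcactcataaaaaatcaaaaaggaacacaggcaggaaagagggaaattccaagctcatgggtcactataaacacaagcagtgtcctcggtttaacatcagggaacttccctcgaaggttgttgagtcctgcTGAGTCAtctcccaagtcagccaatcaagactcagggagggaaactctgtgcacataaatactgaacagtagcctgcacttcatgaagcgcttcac
Cxcl11, chr14:15973478-15973727, plus strand: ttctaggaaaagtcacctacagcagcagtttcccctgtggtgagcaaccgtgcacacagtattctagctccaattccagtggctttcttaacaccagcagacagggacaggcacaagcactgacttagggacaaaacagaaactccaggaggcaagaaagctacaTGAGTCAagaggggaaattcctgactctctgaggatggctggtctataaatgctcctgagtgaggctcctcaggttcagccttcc

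Ifit3 holds the interferon element from position -44 relative to the start, on the reverse strand, and the AP-1 letters from position -8. Ifitm3 holds the interferon element from -44 and the AP-1 letters from -151, and Cxcl10 holds them from -243 and -96. The Cxcl11 window has the AP-1 letters from -85 and not the interferon core, and the window of Oasl has neither. Of 33469 windows of the same length, 3.41% hold the interferon core and 6.34% hold the AP-1 letters. A match is a description of the letters and says nothing of binding in these slices.

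Ifit3, an antiviral protein gene with tetratricopeptide repeats, was at 1.76, 1.06, 1.62 and 1.44 in sham slices and at 0.42, 0.19, 1.23 and 0.42 after iTBS. Rat 3 differed least and its iTBS value overlapped the sham range. The mean difference was -0.91 ± 0.17 (SE, n = 4), and -0.92 ± 0.22 without rat 2. Cxcl11, a chemokine for CXCR3-bearing lymphocytes, differed by -1.94, -0.98, -1.27 and -0.45 with no overlap (mean -1.16 ± 0.25). Ifitm3, a membrane protein that blocks virus entry, differed by -1.2, -0.56, -0.22 and -0.38. Cxcl10, a further CXCR3 ligand, differed by -0.9, -0.66, -0.02 and -0.44, so rat 3 was close to 0. Oasl, an antiviral oligoadenylate synthetase-like gene, differed by -1.97 and -2.9 in rats 1 and 2 and by -0.04 and -0.00 in rats 3 and 4. The sham and iTBS arrays of rats 3 and 4 shared a slide, and whether the slide had a part in this was not tested. Cxcl10 and Oasl were lower in 3 of 4 rats with 75th percentile scaling. With normexp Cxcl10 was lower in 3 of 4 and Oasl in 2 of 4, and the Oasl difference of rat 2 was -0.29. Oasl was well above background on 3 of the 4 iTBS arrays.

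The median difference over the 31 tested interferon genes was -0.11, and in single rats the median was -0.57, 0.23, -0.04 and -0.04. With 75th percentile scaling 6 genes of the list were lower in all 4 rats, and with normexp 3 were lower and 1 higher.

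Vascular markers had mean differences below 0, while their medians in rats 1 and 2 turned sign with scaling. Over 15 endothelial and mural markers the mean difference was below 0 for all 15, beside 6839 of all 13149 genes. It ran from -0.47 to -0.02, with a median of -0.19. Rat 2 had a median of 0.18, against -0.33, -0.13 and -0.56 in rats 1, 3 and 4, and 12 of the 15 were lower in each of those 3 rats beside 14.8% of all genes. With 75th percentile scaling 5 of the 15 were, beside 4.67% of all genes, and with normexp 3, beside 8.38%. The medians of rats 1 to 4 were 0.1, -0.09, -0.07 and -0.63 with the first of these scalings and 0.02, -0.01, -0.09 and -0.6 with the second, so rat 4 was the rat clearly below 0 in each. Esam, an adhesion molecule of endothelial junctions, was the 1 marker lower in all 4 rats, by 0.41, 0.45, 0.23 and 0.78 (mean difference -0.47 ± 0.15), and in 3 of 4 with either other scaling.

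A further 3 genes of vessels were looked up after their values had been seen. Nos3, the endothelial nitric oxide synthase, was at 0.59, 0.53, 0.02 and 0.09 in sham slices and at -0.36, -0.45, -0.27 and -0.44 after iTBS, with no overlap (mean difference -0.69 ± 0.15). Gja4, a connexin of arterial endothelium, was at 0.87, 0.77, 1.08 and 0.97 in sham slices and at -0.13, 0.61, 0.21 and 0.42 after iTBS (mean difference -0.65 ± 0.16). Cd93, an endothelial surface receptor, differed by -0.93, -0.34, -0.53 and -0.47.

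By criteria modelled on those of the study, parts of which had to be assumed, 11 of 45598 probes (0.0241%) were called, and all 11 were lower. A gene name is given for 9 of them, Fosl1, Csf3, Cxcl11, Ifit3, Gpr4, Timp1, Tubb6, Map3k6 and Sbno2. Tubb6, a beta tubulin, was at 2.78, 1.52, 1.77 and 2.09 in sham slices and at 1.01, 0.99, 1.44 and 1.4 after iTBS. Sbno2, a transcriptional regulator of cytokine responses, was at 5.12, 4.55, 4.45 and 4.44 and at 4.44, 3.63, 3.95 and 4.04. Map3k6, a stress-activated kinase, had a mean difference of -0.53 ± 0.17. Without rat 1 the same criteria called 1 probe, and without rat 2 they called 25, 8 higher and 17 lower, of which 4 were among the 11.

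Immune genes of the MHC class II and complement lists separated rats more than treatments. Cd74, the invariant chain that guides class II molecules, was at 8.82, 2.56, 3.01 and 5.3 in the sham slices of rats 1 to 4 and at 9.23, 1.95, 4.34 and 7.15 after iTBS. The level of rat 1 was the highest in both groups and that of rat 4 was next. Paired differences of Cd74 were 0.41, -0.61, 1.32 and 1.85 (mean 0.74 ± 0.44, SE, n = 4), and the mean without rat 2 was 1.19 ± 0.43. With either other scaling Cd74 was higher in 2 of 4 rats with a mean of 0.52. Its difference in rat 1 was then -0.25 with 75th percentile scaling and -0.29 with normexp. RT1-Da, RT1-Bb and RT1-Db1, class II chains, had mean differences of 0.65, 0.64 and 0.63, with values of 1.91, 2.18 and 1.98 in rat 4. The class II chains are near-identical members of 1 family, and probes may share signal between them.

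Over 13 class II genes the median difference was -0.35, -0.22, 0.21 and 0.75 in rats 1 to 4, and 0 genes were higher or lower in all 4. Class I genes followed with medians of -0.23, 0.03, 0.02 and 0.65, and RT1-A1 and RT1-A2, class I heavy chain paralogs that cannot be told apart with certainty, were higher in all 4 rats with means of 0.36 and 0.34. Rat 4 supplied most of that mean, with differences of 0.99 and 1.01. With either other scaling both were higher in 3 of 4 rats.

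Complement genes were as uneven. C3, the central component, was at 7.99, 3.25, 3.67 and 4.99 in sham slices and at 7.78, 3.17, 4.46 and 6.35 after iTBS (mean difference 0.47 ± 0.29, and 0.65 without rat 2). C4b, an upstream component, differed by 0.17, -0.05, -0.03 and 1.66, and its close paralog C4a by -0.66, -0.08, -0.03 and 1.74. C2, the serine protease of the classical pathway, differed by -0.26, 0.16, 0.09 and 1.63, and was higher in 2 of 4 rats with either other scaling. The C4b difference of rat 1 was -0.41 with 75th percentile scaling and -0.43 with normexp. Rat 4 thus lay above the other 3 rats for C4a, C4b and C2. Cfb, the alternative pathway protease, was the 1 complement gene lower in all 4 rats, by 0.4, 0.15, 0.13 and 0.65, but in 3 of 4 with 75th percentile scaling and in 2 of 4 with normexp. The median over 23 complement genes was -0.01, and in rats 3 and 4 alone it was 0.38.

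Il1b, the inflammatory cytokine interleukin-1 beta, differed by -0.49, -0.73, -0.73 and 1.85, so 3 rats were lower and 1 was higher (mean -0.03 ± 0.48). Il12b, a subunit of interleukins 12 and 23, was at 1.48, -3.79, -2.95 and -3.75 in sham slices and at -0.08, -3.38, -3.35 and -0.26 after iTBS, and its differences ran from -1.57 in rat 1 to 3.5 in rat 4. Over 34 tested genes that the study tabulated for its slices, a list chosen on these samples and therefore no independent evidence, the median was -0.00, and it was -0.34, -0.19, -0.04 and 0.58 in rats 1 to 4 and 0.19 without rat 2. In the T and cytotoxic lymphocyte list 12 of 22 genes were tested, and the median difference was -0.34, -0.38, 0.36 and 0.39 in rats 1 to 4. Markers of adult neurogenesis and proliferation had a median of -0.01 over 16 genes, with 0 higher or lower in all 4 rats.

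**Figure D3:**
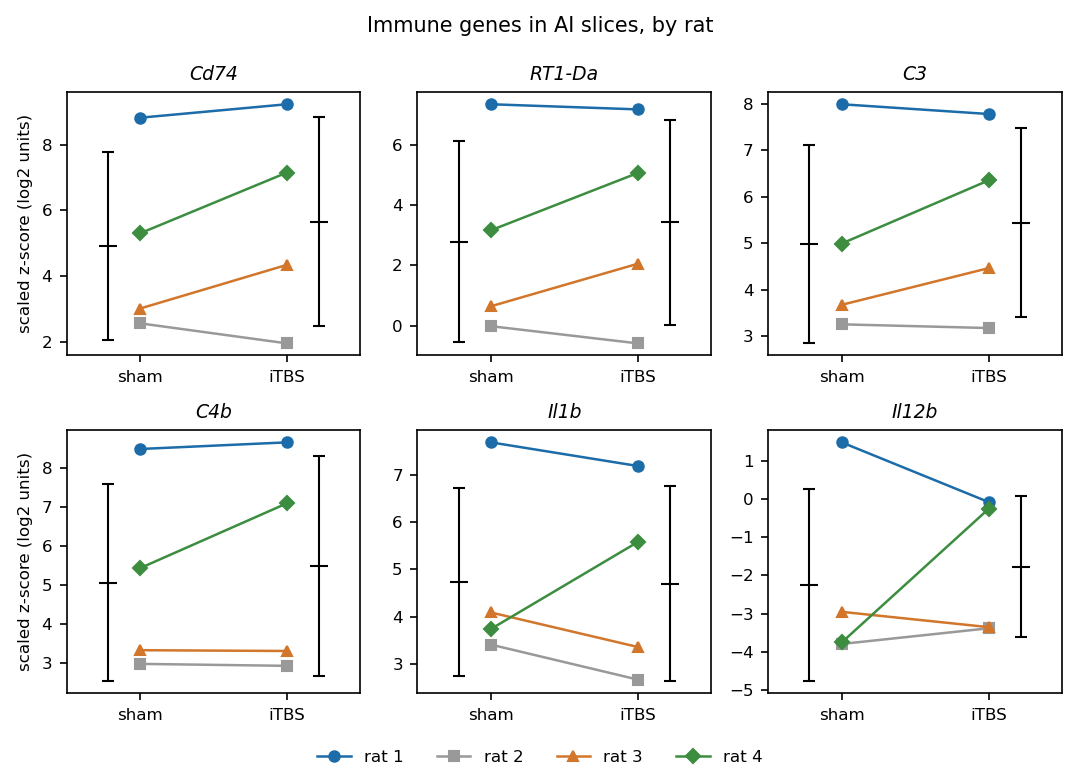
Scaled z-score (y axis, log2 units) of 6 immune genes in sham and iTBS slices (x axis) of AI rats 1 to 4, with 1 line for each rat and the mean ± SD of 4 rats beside each group. Rat 1 is highest for every gene in sham slices, and the line of rat 4 runs upward in each panel.

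Genes higher in all 4 rats with the smallest p were mostly dim. The 10 were Ptprh, Bmp15, Jade3, H2ac21, Clec1a, Snai2, Or4c127, Fam170a, Or2d2b and Trpm5, and all 10 had a mean level below 0 in both groups. A probe was tested when it was well above background on all 4 arrays of any 1 group, so Ptprh, Bmp15, Jade3, Or4c127, Fam170a and Trpm5, which were so on all 4 iTBS arrays and on 0 to 3 sham arrays, could enter through the group where they are high. Restricted to probes well above background on all 8 arrays, 60 were higher and 338 lower at an unadjusted p under 0.05. Or4c127 was the 1 gene of the 10 that was higher in all 4 rats with each scaling. Clec1a, a C-type lectin receptor, was well above background on every array, at -1.69, -1.4, -1.21 and -1.36 in sham slices and at -1.19, -0.95, -0.95 and -0.67 after iTBS, with no overlap (mean difference 0.48 ± 0.13). H2ac21, a histone H2A gene, Snai2, a repressor of epithelial genes, and Or4c127, an odorant receptor gene, were well above background on 0 of 4 sham arrays. On the z-score scale, against the lowest signal counted as well above background, they were at least 1.19-fold, 1.33-fold and 1.71-fold higher after iTBS. Signal was measured in 3, 3 and 4 iTBS samples. With normexp their mean log2 differences were smaller, at 0.14, 0.17 and 0.29, so the bounds hold for z-scores only. Such bounds use the mean of 4 iTBS arrays, and the number of arrays limits their precision.

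Astrocyte markers, whose median level was above 0 on every array, were higher in several cases but not in all. Slc1a3, the glutamate transporter GLAST, was at 7.18, 7.45, 7.77 and 6.95 in sham slices and at 7.58, 7.63, 7.94 and 7.63 after iTBS (mean difference 0.36 ± 0.15, and 0.42 without rat 2). Gja1, the astrocyte connexin, differed by 0.24, 0.22, 0.2 and 0.85, and Slc1a2, the glutamate transporter GLT-1, by 0.27, 0.35, 0.15 and 0.26. The groups overlapped for each of the 3. Over 13 astrocyte markers the median difference was 0.2, 3 were higher in all 4 rats beside 1.33% of all genes, and 0 were lower in all 4. Means were above 0 for 11, beside 6310 of all 13149 genes, and below 0 for 2, Vim (-0.28) and Sox9 (-0.07). Gfap differed by -0.18, -0.76, 0.49 and 0.68. With either other scaling 3 were higher in all 4 rats as well, but Slc1a3 was so in 3 of 4 and 2 of 4. Medians in single rats were 0.09, 0.05, 0.2 and 0.63, beside -0.21, 0.15, -0.09 and 0.1 over all tested genes.

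Neuronal lists varied around 0. The median over 26 glutamate receptor genes was 0.02, over 15 GABA receptor genes 0.04 and over 16 cholinergic genes 0.00. The 6 CA1 markers all had mean differences below 0, beside 6839 of all 13149 genes, with a median of -0.17. Their medians in rats 1 to 4 were -0.16, -0.13, 0.15 and -0.81. Claudins, which are tight junction genes, had a median of 0.11 over 13 genes. Synaptic vesicle genes had a median of -0.04 with medians of 0.39, -0.34, -0.4 and 0.31 in rats 1 to 4, and of 0.22 without rat 2. Syp, the vesicle protein synaptophysin, was the 1 gene of 21 lower in all 4, and in 3 of 4 with either other scaling. Slc17a6, the vesicular glutamate transporter VGLUT2 of thalamic and other subcortical neurons, differed by -1.89, 0.04, -2.13 and -0.23. Interneuron genes had a median of -0.11, with 13 of 16 means below 0, beside 6839 of all 13149 genes. Their medians in rats 1 to 4 were 0.03, 0.21, -0.55 and -0.14, and 0 were lower in all 4. Mitochondrial complex I and ATP synthase genes had a mean difference above 0 in 40 of 46, beside 6310 of all 13149 genes, with medians of 0.41, -0.12, -0.06 and 0.13 in rats 1 to 4 and 1 gene higher in all 4.

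Markers of neighbouring tissue moved in single rats. Tmem212 and Dynlrb2, genes of ciliated ependymal cells, were lower by 2.74 and 2.42 in rat 1 and by 3.28 and 2.14 in rat 2, and their differences in rat 3 were 0.59 and 1.19. The median over 9 ependymal markers was -1.2, -0.75, 0.3 and -0.2 in rats 1 to 4, and over 11 markers of thalamus and other adjacent tissue -0.84, 0.41, 0.01 and -0.15. In rat 4 the 15 endothelial and mural markers had a median of -0.56 and the 6 CA1 markers one of -0.81. The part of slice composition in the other results was not tested.

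**Figure D4:**
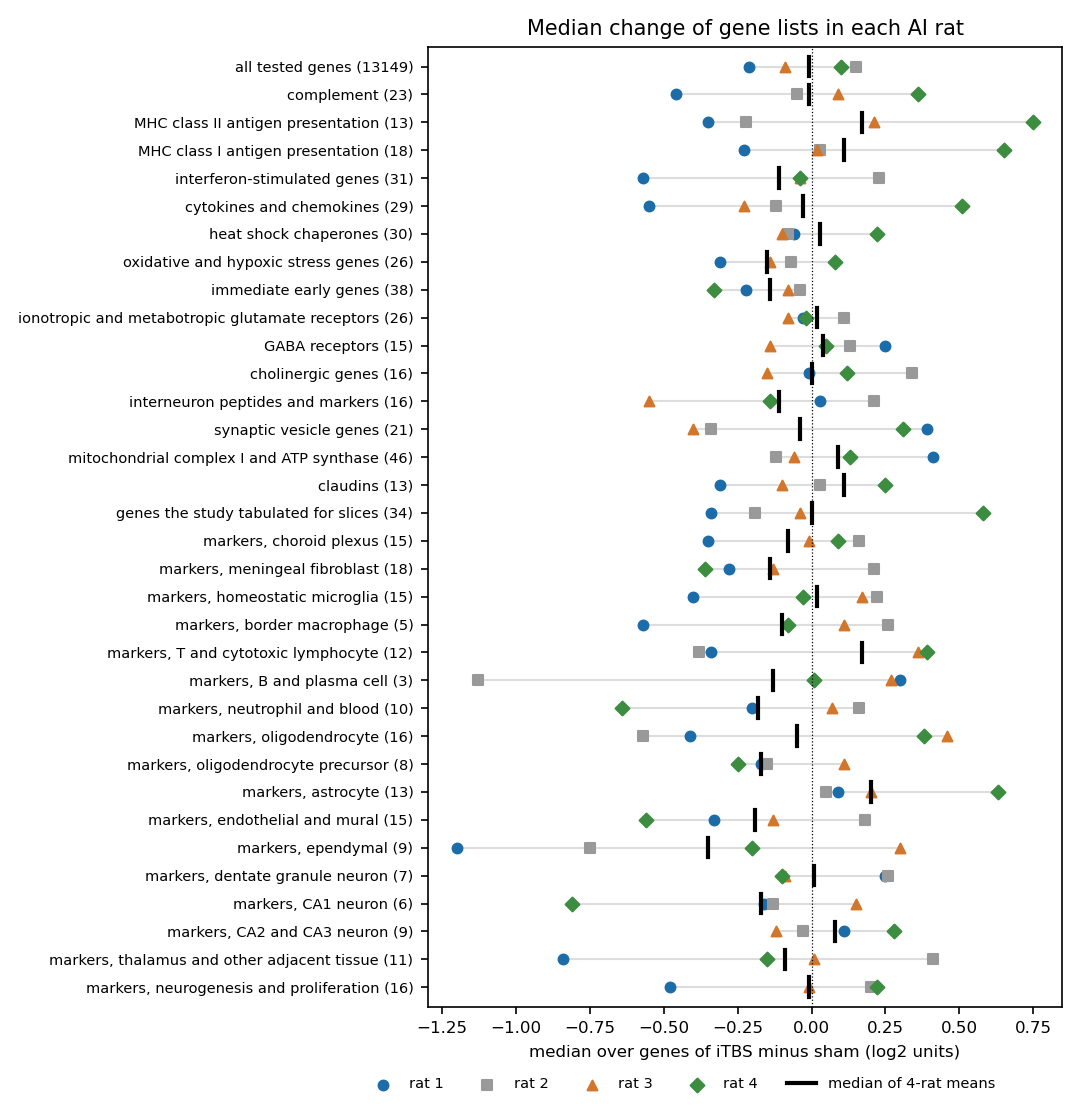
Median over the tested genes of each list (number of genes in brackets, y axis) of iTBS minus sham (x axis, log2 units) in AI rats 1 to 4, with a bar at the median of the mean differences over 4 rats; the first line takes the 13149 genes with a value on all 8 arrays. The medians of all tested genes are -0.21, 0.15, -0.09 and 0.1 in rats 1 to 4. Beside these, the immediate early list is below 0 in each rat and the astrocyte list above 0 in each. The class II, complement and study lists run from rat 1 below 0 to rat 4 above 0.

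Leaving out rat 2 brought forward other genes. In rats 1, 3 and 4 the higher genes with the smallest p were Dmbx1, Dpep3, Madcam1, Or5ak24 and Bmp15, and the lower ones Or5h17c, Shisa8, Trpv4, Pmaip1 and Drd2, with 0 probes past adjustment and a smallest adjusted p of 0.801 in limma. Dmbx1, a homeobox gene, differed by 1.57, 1.23 and 1.14 in those rats and by -0.57 in rat 2. It was well above background on 1 of 4 sham arrays, so it passed the filter through another group. The means without rat 2 of Dmbx1, Dpep3, Madcam1, Or5ak24 and Bmp15 were 1.31, 1.38, 1.07, 0.93 and 0.62 with z-scores. They were larger with 75th percentile scaling, and with normexp they fell to 0.36, 0.41, 0.36, 0.3 and 0.16. Trpv4, a cation channel of choroid plexus and astrocyte endfeet, differed by -1.58, -0.88 and -0.76, and by 0.15 in rat 2. With either other scaling Trpv4 and Shisa8 were lower in all 4 rats. Drd2, the dopamine D2 receptor, was at 0.12, 0.1 and -0.29 in the sham slices of rats 1, 3 and 4 and at -0.88, -0.63 and -1.16 after iTBS, while in rat 2 it was at 0.6 and 1.09. Pmaip1, the p53 target Noxa, differed by -0.85, -0.7 and -0.92, and by -0.1 in rat 2. Unadjusted calls without rat 2 numbered 665 higher and 1319 lower, and with 75th percentile scaling 1571 higher and 131 lower.

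The same comparison in young and AU slices was set beside that in AI slices by an interaction test over 36 arrays. For AI minus young, 0 of 32546 probes (0%) passed adjustment in limma, with 459 higher and 386 lower at an unadjusted p under 0.05. These were 110 and 851 with 75th percentile scaling, 352 and 921 without the rats numbered 2, and 106 and 97 without the block. For AI minus AU, 0 passed (0%), with 299 higher and 756 lower unadjusted, and 397 and 380 with 75th percentile scaling. The sham array of young rat 2 correlated at 0.97 to 0.99 with arrays of AI rat 1 and below 0 with those of its own rat, so values of young rat 2 are uncertain.

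Fosl1 had mean differences of -1.61 in young, -1.3 in AU and -1.23 in AI slices. In young rats it was lower in 4 of 4 and in AU rats in 3 of 4, and its difference between AI and young was 0.38 ± 0.54. Csf3 and Il6 had means of -1.02 and -0.95 in young and of -0.77 and -0.68 in AU slices. Nos3 was near 0 in both, at 0.12 and 0.03. Its AI difference lay 0.81 ± 0.21 below the young one and 0.72 ± 0.21 below the AU one, with adjusted p = 1 in limma for each. Nos3 was named after its AI values had been seen, so this contrast is no independent evidence. Its difference in AI rat 3 was -0.3 with z-scores, -0.14 with 75th percentile scaling and -0.07 with normexp. Hspa1a had means of -0.21 and -0.46 in young and AU slices, and Cxcl11 means of -0.17 and -0.84.

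**Figure D5:**
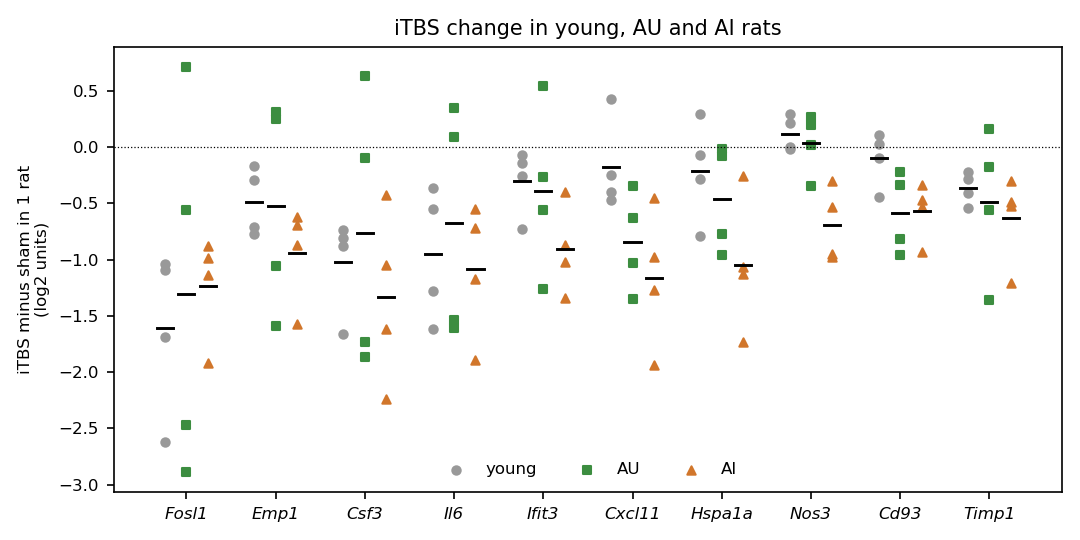
Difference iTBS minus sham in each of 4 rats (y axis, log2 units) for 10 genes (x axis) in young (grey circles), AU (green squares) and AI (orange triangles) slices, with a bar at each mean. With z-scores Nos3, named after its AI values had been seen, lies between -0.35 and 0.29 in young and AU rats and between -0.98 and -0.3 in AI rats. Fosl1 lies below 0 in all but 1 of the 12 rats.

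The 1 Hz arrays of the same AI rats share their sham arrays with iTBS, so values are set side by side without a test. Fosl1 differed from sham by -0.54, -0.59, -1.01 and -0.34 after 1 Hz, a mean of -0.62 beside -1.23 after iTBS. Mean differences after 1 Hz were -0.69 for Hspa1a, -0.68 for Csf3, -0.74 for Il6, -0.45 for Ifit3, -0.41 for Emp1 and -0.13 for Nos3. Cd74 had a mean of 0.86 after 1 Hz, with 2.38 in rat 4.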

How the data were processed

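Total RNA of hippocampal slices was labelled with Cy3 and hybridized to one-colour Agilent rat arrays, which were scanned and read with Feature Extraction. The authors deposited the scanner output of each array, whose processed signal is an intensity, background-subtracted by the scanner software, and a table of z-scores, a score per probe and array. From the deposited intensity columns, log2 of the processed signal was turned into a z-score over all features of an array and multiplied by the mean SD of the 36 primary arrays (4.158). These values differed from the deposited score table by at most 0.005 z-score units. Spots flagged as outliers were left out and spots of 1 probe were averaged. The scan headers name build rn4 and no probe sequences were used.

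Of 45598 probes, 32546 were tested, namely those marked well above background by the scanner software on each of the 4 arrays of any of the 9 primary groups. Gene symbols were assigned by matching the accession of each probe in the array files to RefSeq genes, and 21109 probes received one. Genes were counted by their brightest probe. limma 3.58.1 in R 4.3.3 (lmFit and eBayes) was run on the 12 primary AI arrays with the rat as a fixed block, with Benjamini-Hochberg adjustment over all tested probes. The study names no block. Descriptions give 1 animal to each number, and deviations of the sham and iTBS arrays from their group means correlated within rats 1 to 4 at 0.47, 0.11, 0.29 and 0.38. The script was tested on simulated data with known changes.

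Members and gene lists were chosen with earlier results of these data known. Named genes were the 10 higher and 10 lower with the smallest p among those in the same direction in all 4 rats, and the 5 of each without rat 2. They also took in the genes of each list with the largest mean differences, those the study tabulated, and those past criteria modelled on those of the study. These criteria were an ANOVA over 9 groups at 0.05, a p under 0.05 in a z-test, an FDR under 0.3, a z-ratio of more than 1.5 in size, and a pair mean over 0 on the z scale. The exact z-test and the groups of the ANOVA are not given in the sources used here. A repeat whose title and description name different treatments of rat 2 was in no group. Promoter windows came from RefSeq (GRCr8). Alternatives covered scaling, filter, block, slide, array weights and rats left out.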

Additional observations from a re-analysis of the deposited data

Results flagged for a closer look

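Among 116 values examined, 10 had 1 rat far from the other 3 by Dixon's criterion, which flags about 1 in 20 groups by chance. In rat 4 the difference iTBS minus sham stood apart for C4b (1.66), RT1-A1 (0.99), RT1-A2 (1.01), Il1b (1.85), Gja1 (0.85), Trpc6 (-3.66) and Plk2 (-0.63), and for the median of the heat shock chaperones (0.22). In rat 3 it stood apart for Cd3e, a T cell receptor chain, at 2.84 against values from -2.5 to -2.13 in the other rats. In rat 2 it stood apart for Dpep3, at -1.98 against 1.3 to 1.53.

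Opposite differences in every rat of 2 groups were found for 2 of 83 genes examined. Ptprh was higher in all 4 AI rats (mean 0.56) and lower in all 4 AU rats (mean -0.37), and Or4c127 was higher in all 4 AI rats (mean 1.32) and lower in all 4 young rats (mean -0.63). The interaction had an adjusted p of 1 in limma for each, and both genes are dim.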

How the results depend on the processing

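Without the rat as a block and under every other setting tried, 0 probes passed adjustment, with a smallest adjusted p of 0.261 (array weights), and 0 passed in both interaction tests (smallest adjusted p 0.0717). The unadjusted count of 523 was 229 without the replicate block, 331 on the 8 sham and iTBS arrays alone, 934 without the filter on dim probes (462 higher, 472 lower), 1437 with slide and rat as blocks, 1916 with array weights, 2482 without the sham array of rat 2 and 231 with 1 probe per gene. With each rat left out it ran from 578 to 1984 (the latter without rat 2), and without rat 1 it was 776, with 455 higher and 321 lower. With 75th percentile scaling and rat 2 left out, chosen after seeing the data, it was 1702, 1571 of them higher. The cause was not tested. The criteria modelled on those of the study, with parts assumed, called 11 probes. They called 23 with the ANOVA over the 3 AI groups and 44 with the level criterion dropped (22 higher, 22 lower). With each rat left out they called from 1 (without rat 1) to 25 (without rat 2). In rats 3 and 4 alone the median was 0.38 for complement and 0.45 for the genes the study tabulated, and the other 338 list medians under these alternatives moved by less than the spread between rats. With each rat left out, the differences of 8 genes ran through 0: C2 from -0.00 to 0.63, C4a from -0.25 to 0.55, Il12b from -0.52 to 1.17, Il1b from -0.65 to 0.21, Trpc6 from -1.27 to 0.07, Egr1 from -0.24 to 0.05, Arc from -0.32 to 0.01 and Hspa8 from -0.08 to 0.41. The sign of C2, C4a, Il12b, Trpc6, Egr1 and Arc turned without rat 4, that of Hspa8 without rat 1, and that of Il1b without rat 1, 2 or 3.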
